A study of Homo sapiens with 24 samples.

Results

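The change in gene expression between 2 and 6 h of pyridostatin (PDS) was compared between 2 ovarian cancer cell lines, PEO1 BRCA+ and PEO4. For each gene the measured quantity was the log2 fold change from 2 to 6 h in PEO4 minus that in PEO1 BRCA+, here called the line difference. All genes were eligible, 12 of the 24 RNA libraries of the series entered (3 per line and time), and no untreated library entered the main fit. PEO1 BRCA+ cells (labelled PEO1 B, genotype BRCA2+) are cisplatin-sensitive PEO1 cells in which a spontaneous reversion restored BRCA2. PEO4 cells (labelled PEO4 B, genotype WT) are the cisplatin-resistant counterpart and carry a natural reversion of BRCA2. All 12 libraries came from cells kept in 5 µM PDS, so what is common to the treated libraries of both lines cancels in the line difference. The 3 replicates per group are labelled biological, and p-values measure the spread between these samples of 2 cell lines and nothing wider.

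G-quadruplexes (G4s) are folded structures that guanine-rich DNA or RNA strands can adopt, often at promoters. PDS is a small molecule that binds and stabilises them, and it can slow polymerases and cause DNA damage. Messages with a short life, such as those of early response genes, follow a change in transcription quickly, whereas long-lived messages follow it slowly.

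Library totals lay between 33260167 and 43713947 counts, and 16386 of 28277 genes had enough counts to be tested. Of 18 serous ovarian carcinoma and epithelial markers, none was at 0 in every library of a PEO1 BRCA+ group and 1 was at 0 in PEO4 at 6 h. Their summed level was 14060 to 16383 CPM (counts scaled to a common library size) in PEO1 BRCA+ and 7615.7 to 8733.9 CPM in PEO4. KRT7, KRT8, PAX8 and EPCAM were present in both lines. SOX17 was near 0 in both, with means of 0.01 and 0.0193 CPM in PEO1 BRCA+ and 0.00907 and 0 CPM in PEO4 (2 and 6 h). FOLR1 had means of 0.0544 and 0.0657 CPM in PEO1 BRCA+ and 3.96 and 1.11 CPM in PEO4. The T cell genes CD3D, CD3E and CD2 and the B cell gene MS4A1 were at 0 in all 12 libraries. PEO4 2 h replicate 2 stood apart most from its group, with an SD of log2 deviations from the group mean of 0.119 against 0.0497 to 0.0957 in the other 11 libraries. Named genes whose call was lost without it are given with both values.

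Most of the genes with a line difference moved in PEO4. In PEO4, 382 genes rose from 2 to 6 h (2.33% of those tested) and 1554 fell (9.48%), where a call needed a log2 size over 1 together with an adjusted p (Benjamini-Hochberg) under 0.05 in edgeR's quasi-likelihood test. In PEO1 BRCA+, 17 genes rose (0.104%) and 25 fell (0.153%). The line difference itself passed the same threshold upward, with a higher change in PEO4, for 349 genes (2.13%) and downward for 1177 genes (7.18%). By adjusted p alone, at any size, the counts were 4114 higher (25.1%) and 4123 lower (25.2%), and the median line difference over all genes was −0.02. TMM scaling centres the genes near 0, so nothing is read from the near balance by adjusted p.

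**Figure D1:**
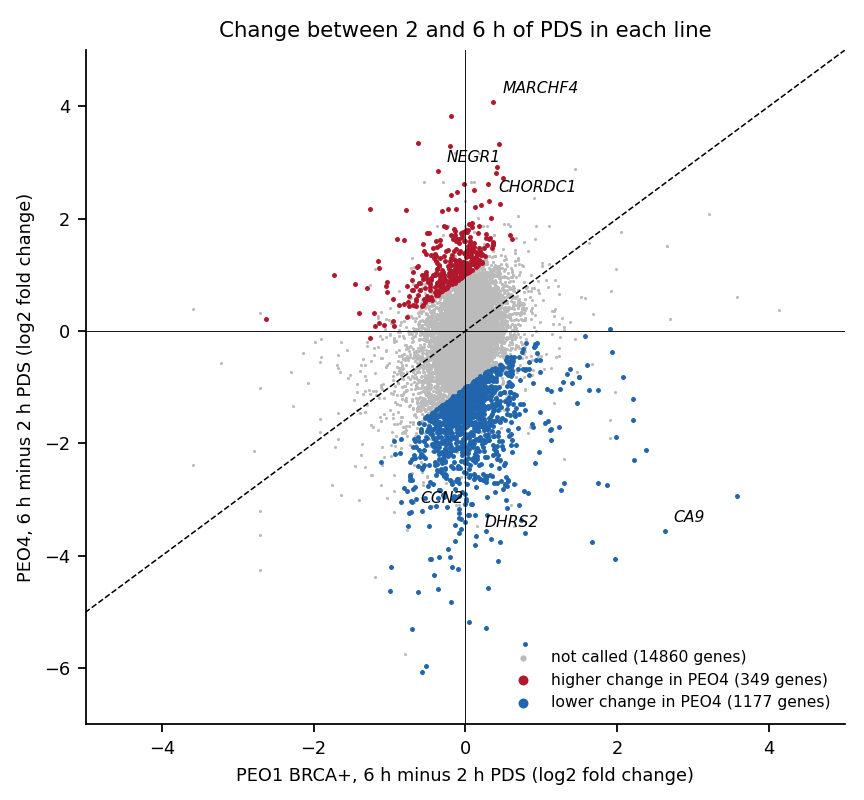
Log2 fold change from 2 to 6 h of PDS in PEO1 BRCA+ (x axis) and PEO4 (y axis), 1 point per tested gene, with equal change on the dashed line. The 349 genes called higher (red) and the 1177 called lower (blue) spread along the PEO4 axis and stay close to 0 on the PEO1 BRCA+ axis, with CA9 among the exceptions.

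Among the 349 higher genes, 269 rose in PEO4 by adjusted p while PEO1 BRCA+ did not pass, 49 rose in PEO4 and fell in PEO1 BRCA+, and 8 rose in both. Of the others, 5 passed in PEO1 BRCA+ alone and 18 in neither line. Among the 1177 lower genes, 1049 fell in PEO4 while PEO1 BRCA+ did not pass, 36 fell in PEO4 and rose in PEO1 BRCA+, 55 fell in both, 11 passed in PEO1 BRCA+ alone and 26 in neither. The median change in PEO4 was 1.15 for the higher genes and −1.51 for the lower genes, and in PEO1 BRCA+ it was −0.15 and 0.03 (log2).

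Without PEO4 2 h replicate 2 the counts were 305 higher and 993 lower, and 1228 of the 1526 called genes (80.5%) were called again. That library was the highest of the 3 PEO4 2 h libraries for 949 of the 1177 lower genes and the lowest for 203 of the 349 higher genes. Among the genes named below by size, it was the lowest for all 10 with the largest positive line difference. For all 10 with the largest negative it was the highest. It thus lay farther from the 6 h libraries than its replicates for most called genes, and the size of the line difference was smaller without it for 61 of the 69 called genes that the rule for named genes chose.

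Calls with the size threshold were more frequent among weakly expressed genes, whereas genes passing by adjusted p alone were more frequent among strongly expressed ones. Of 2678 genes with a mean log2 CPM under 0, 3.96% were called higher and 15.2% lower, against 1.01% and 1.26% of 3582 genes with a mean over 6. By adjusted p alone the shares were 4.22% higher and 15.6% lower under 0, and 46.8% higher and 21.2% lower over 6. At 8 of the 1177 lower genes every PEO1 BRCA+ library had at most 3 counts, so the line difference there rests on PEO4 alone. A mean under 10 counts in a line occurred for 43 higher and 184 lower genes.

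The lines already differed at 2 h, when 4325 genes (26.4%) were called between them in either direction, and 3779 (23.1%) were called at 6 h. These comparisons use the same libraries as the line difference and are given as a description. Among the higher genes, PEO4 lay below PEO1 BRCA+ at 2 h by a median of −1.01 and above it at 6 h by 0.37 (log2). The gap narrowed for 133 of them, widened for 61 and changed sign for 155. Among the lower genes the median gap went from 0.87 to −0.68, narrowing for 336, widening for 309 and changing sign for 532.

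**Figure D2:**
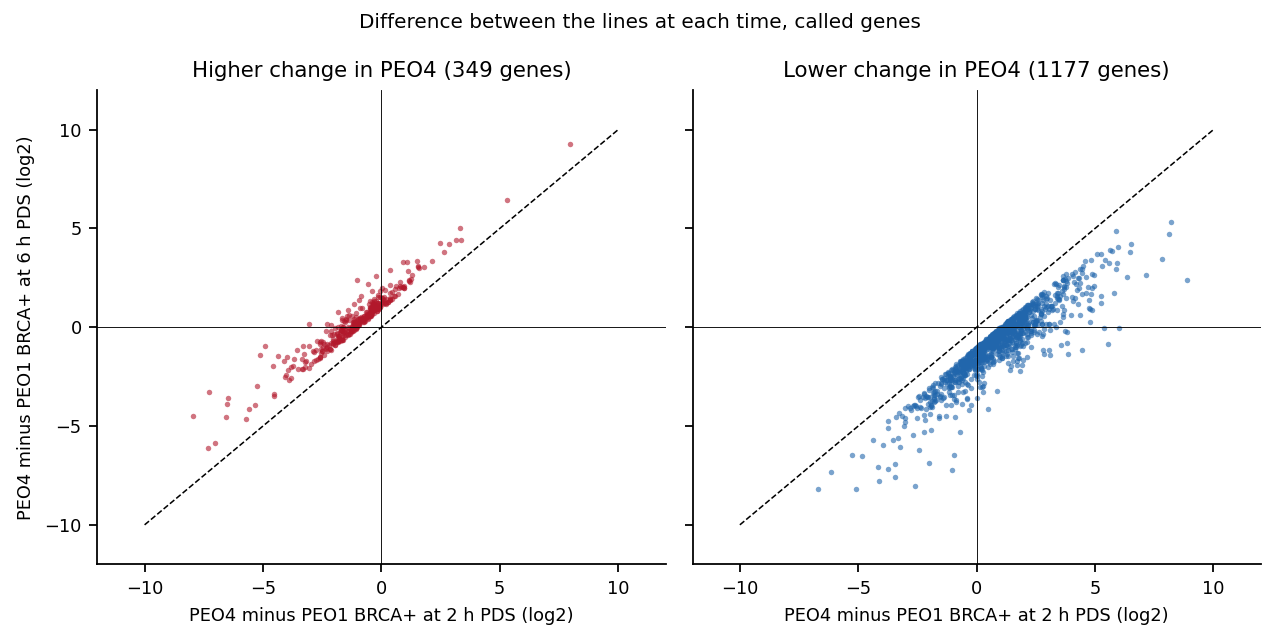
Difference between PEO4 and PEO1 BRCA+ (log2) at 2 h (x axis) and at 6 h (y axis) for the 349 higher genes (left) and the 1177 lower genes (right), 1 point per gene, with equal gaps on the dashed line. Most higher genes start left of 0 and most lower genes right of 0, and 155 and 532 of them, respectively, cross to the other sign by 6 h.

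Sequence upstream of the start site is shown for 4 of the genes that the results turn on, chosen because each holds the recognition letters of a pathway described here or a G4-forming pattern. Other called genes lack them in the 250 bases upstream: HSPH1 and DNAJA4 held no heat shock element, CA12 no hypoxia core, and KCNF1, CCN2 and DHRS2 no G4 pattern. Letters are from RefSeq (GRCh38.p14), 5′ to 3′ on the strand of the gene, with the pattern in capitals.
CHORDC1, chr11:90223072-90223129, minus strand, with 2 overlapping matches to the heat shock element (GAA, TTC and GAA blocks in a row, each 2 bases apart), 1 on each strand: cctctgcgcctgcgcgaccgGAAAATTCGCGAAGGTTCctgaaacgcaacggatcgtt
IFI6, chr1:27672256-27672368, minus strand, with 3 matches to the interferon-stimulated response element (a pair of GAAA blocks 2 bases apart): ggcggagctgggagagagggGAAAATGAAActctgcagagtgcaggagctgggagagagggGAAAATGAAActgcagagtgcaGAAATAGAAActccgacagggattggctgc
CA9, chr9:35673890-35673927, plus strand, with 1 match to the hypoxia response core ACGTG read on the opposite strand: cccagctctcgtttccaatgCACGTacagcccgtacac
MARCHF4, chr2:216372484-216372534, minus strand, with 1 run of the G4 pattern (4 runs of at least 3 G, 1 to 7 bases apart) on the opposite strand: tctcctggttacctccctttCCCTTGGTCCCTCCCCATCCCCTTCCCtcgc
A match describes letters and not a bound site. Over all 27305 promoters in the table (250 bases before to 50 after the start site, both strands), the heat shock element occurred in 0.487%, the interferon element in 3.65%, the hypoxia core in 21.6% and the G4 pattern in 24.1%. Among the 12106 tested genes with a promoter the shares were 0.33%, 2.83%, 25.7% and 33.9%.

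Among called genes with a mean log2 CPM of at least 3, the 10 with the largest positive line difference included several that were near the floor in PEO4 at 2 h. MARCHF4, a membrane ubiquitin ligase gene (chr2:216257865-216372483), had 1.37, 0.605 and 1.53 CPM in the 3 PEO4 libraries at 2 h and 21.2, 19.9 and 18.8 CPM at 6 h. In PEO1 BRCA+ it had 38.2, 41.9 and 43.2 CPM at 2 h and 54.5, 51.6 and 53.02 CPM at 6 h. No PEO4 group overlapped another group, and PEO1 BRCA+ stayed higher at both times. The line difference was 3.70 (SE 0.176, adjusted p = 1.34e-10, n = 3 per group), from a rise of 4.07 in PEO4 against 0.37 in PEO1 BRCA+.

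NEGR1, which encodes a neuronal adhesion molecule (chr1:71395943-72282539), had 3.78, 2.80 and 3.73 CPM in PEO4 at 2 h and 24.0, 26.6 and 24.3 CPM at 6 h, while PEO1 BRCA+ had 27.4 to 30.2 CPM at 2 h and 19.7 to 25.6 CPM at 6 h. At 6 h the lines overlapped, so the gap of 2 h had closed. The line difference was 3.21 (SE 0.139, adjusted p = 2.69e-12). ESM1, an endothelial-type secreted proteoglycan gene, rose from 0.522 to 2.62 CPM at 2 h to 14.1 to 16.55 CPM at 6 h in PEO4 but stayed far below PEO1 BRCA+, at 128 to 189 CPM. Its line difference was 2.88 (SE 0.33, adjusted p = 6.41e-05).

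The axonal intermediate filament gene INA showed the same form, with 0.467 to 1.53 CPM in PEO4 at 2 h, 4.83 to 6.96 CPM at 6 h and a line difference of 2.59. NAV3, a microtubule-associated gene, had 2.45 to 6.24 CPM in PEO4 at 2 h and 17.3 to 19.8 CPM at 6 h, against 14.7 to 22.4 CPM over both times in PEO1 BRCA+ (line difference 2.44). SEMA3C, a secreted guidance cue, went from 9.10 to 13.5 CPM in PEO4 at 2 h to 40.2 to 42.4 CPM at 6 h (line difference 1.76). In these 3 genes the PEO4 groups did not overlap and PEO1 BRCA+ did not pass the test between 2 and 6 h.

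KCNQ5, a voltage-gated potassium channel gene, was the 1 gene of these 10 at which the lines did not pass the test at 2 h (adjusted p = 0.671). It had 10.97 to 14.6 CPM in PEO4 and 13.1 to 14.3 CPM in PEO1 BRCA+ at 2 h, then 36.1 to 38.9 CPM and 9.49 to 11.5 CPM at 6 h. Its line difference was 1.90 (SE 0.132, adjusted p = 1.25e-09), and at 6 h PEO4 was the higher line. TBC1D2, a Rab GTPase-activating protein gene, had 19.6 to 21.7 CPM in PEO4 at 2 h and 57.2 to 60.2 CPM at 6 h, against 124 to 126 and 86.0 to 104.5 CPM in PEO1 BRCA+ (line difference 1.86). KRT6A, a stress keratin of stratified epithelia, went from 15.4 to 21.9 CPM to 61.6 to 64.9 CPM in PEO4 and from 50.8 to 57.7 CPM to 48.3 to 50.5 CPM in PEO1 BRCA+ (line difference 1.84).

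The 10 largest negative line differences at this level included genes that were far above PEO1 BRCA+ in PEO4 at 2 h. DHRS2, a short-chain dehydrogenase gene (chr14:23630115-23645639), had 97.2, 140 and 78.1 CPM in PEO4 at 2 h and 6.78, 7.68 and 10.9 CPM at 6 h, while the 6 PEO1 BRCA+ libraries lay between 3.70 and 4.72 CPM. The line difference was −3.78 (SE 0.431, adjusted p = 8.39e-05). DEPTOR, an inhibitor of mTOR kinase, had 114, 133 and 97.8 CPM in PEO4 at 2 h and 10.2, 10.5 and 10.6 CPM at 6 h, against 3.44 to 4.91 CPM in PEO1 BRCA+ (line difference −3.32, SE 0.186, adjusted p = 9.21e-10). Both genes thus came down toward the PEO1 BRCA+ level by 6 h without reaching it.

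CCN2 encodes a matricellular protein and is a standard target of YAP and TEAD (chr6:131948176-131951372). It had 563, 645 and 553 CPM in PEO4 at 2 h and 61.0, 67.9 and 60.2 CPM at 6 h. In PEO1 BRCA+ it had 44.1 to 51.9 CPM at 2 h and 26.6 to 31.9 CPM at 6 h, so it fell in both lines and more in PEO4 (line difference −2.51, SE 0.108, adjusted p = 2.14e-11). The ion channel genes KCNF1 (208 to 296 CPM at 2 h, 30.9 to 39.4 CPM at 6 h) and TRPM8 (67.7 to 99.8 CPM at 2 h, 13.7 to 14.1 CPM at 6 h) fell in PEO4 in the same way. Their line differences were −2.82 and −2.87, and neither passed the test in PEO1 BRCA+.

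Other genes among the 10 largest ended below PEO1 BRCA+ at 6 h. KRT15, a keratin of basal epithelial cells, was already below it at 2 h (51.8 to 97.8 against 126 to 133 CPM). At 6 h it was farther below (8.69 to 9.48 against 101 to 127 CPM), with a line difference of −2.79. IGFBP5, which binds insulin-like growth factors, was above PEO1 BRCA+ at 2 h (27.1 to 52.2 against 9.93 to 13.5 CPM) and below it at 6 h (3.30 to 5.15 against 11.9 to 13.8 CPM), with a line difference of −3.41. GBP1, an interferon-induced GTPase gene, crossed in the same way, from 46.7 to 75.9 CPM to 8.97 to 12.2 CPM in PEO4 with 16.4 to 21.3 CPM in PEO1 BRCA+ (line difference −2.75). SEMA3A, a repulsive guidance cue, went from 24.8 to 35.2 CPM to 4.38 to 5.79 CPM in PEO4, with 5.85 to 7.57 CPM in PEO1 BRCA+ (line difference −2.66).

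**Figure D3:**
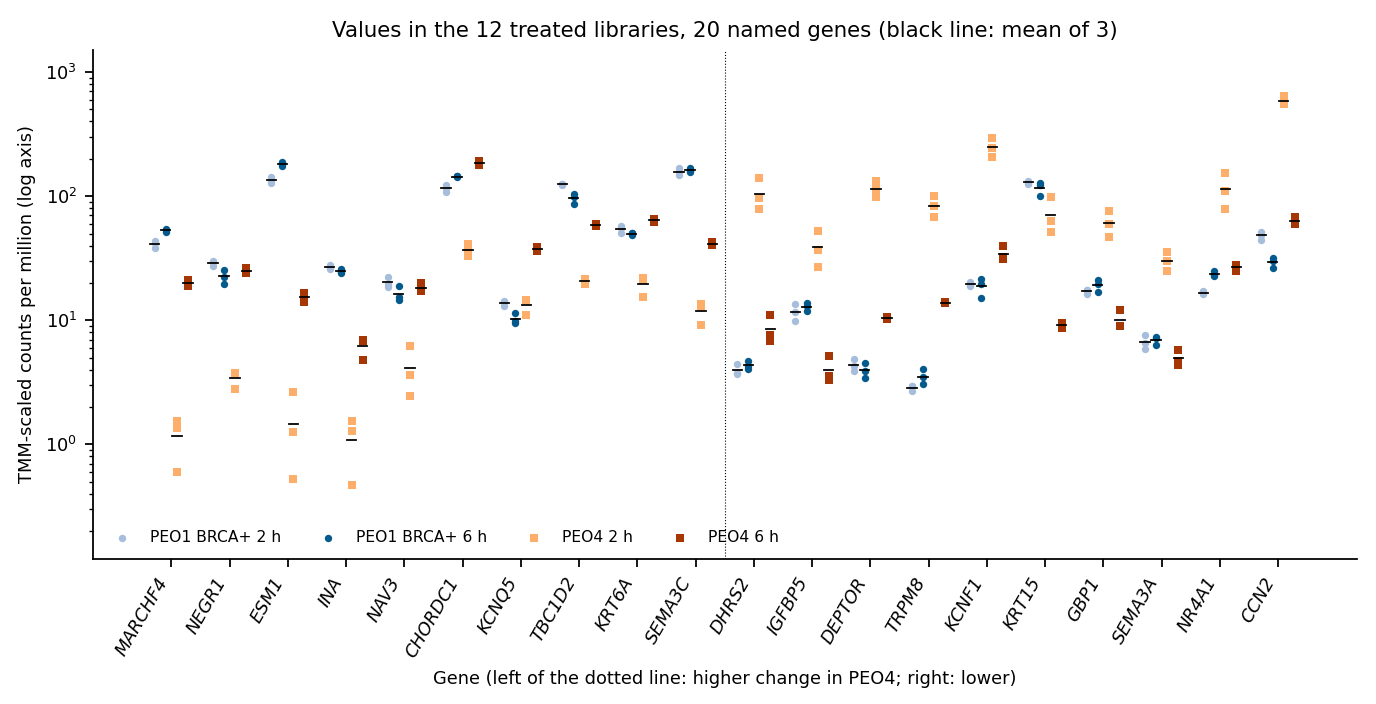
TMM-scaled CPM (log axis) of the 10 genes with the largest positive and the 10 with the largest negative line difference in the 12 treated libraries, with points for single libraries and a black line for the mean of 3. In PEO4 the 2 h squares lie below the 6 h squares for the 10 genes on the left and above them for the 10 on the right, while the PEO1 BRCA+ circles move little.

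CA9 moved in opposite directions in the 2 lines. It encodes a carbonic anhydrase induced by hypoxia-inducible factor (chr9:35673928-35681159). In PEO1 BRCA+ it had 2.50, 1.68 and 2.08 CPM at 2 h and 13.2, 12.98 and 12.2 CPM at 6 h. In PEO4 it had 0.724, 1.10 and 1.14 CPM at 2 h and 0.0461, 0.0886 and 0.116 CPM at 6 h, the last from 2, 3 and 4 counts. The line difference was −6.19 (SE 0.371, adjusted p = 2.00e-10), from a rise of 2.63 in PEO1 BRCA+ and a fall of −3.57 in PEO4.

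Other genes of the hypoxia and glycolysis list were called lower as well. Over all genes tested, 2.13% were called higher and 7.18% lower, and each count of called members below is to be set against these shares. Counts by adjusted p alone are to be set against 25.1% higher and 25.2% lower. Both kinds of share depended on expression level, as given above, and the lists were not matched for it. Of 33 tested members, 8 were called lower and none higher, 16 were lower and 5 higher by adjusted p alone, and the list's median was −0.22 against −0.02 for all genes. CA12, a second carbonic anhydrase, had 8.26 to 12.6 CPM in PEO4 at 2 h and 0.714 to 0.872 CPM at 6 h, with 1.98 to 2.54 CPM in PEO1 BRCA+ (line difference −3.60). NDRG1, a stress-responsive gene, had mean levels of 535.9 CPM at 2 h and 150.3 CPM at 6 h in PEO4 against 601.8 and 572.5 CPM in PEO1 BRCA+, a line difference of −1.76 (SE 0.0751). The glycolytic genes ENO2 and SLC2A3, the phosphofructokinase regulator PFKFB4, the pyruvate dehydrogenase kinase gene PDK1 and the mitophagy receptor gene BNIP3L were the others called. VEGFA, at −0.68, passed the adjusted p but not the size. Of 29 members with a promoter sequence, 12 (41.4%) held the hypoxia core ACGTG, and their median line difference was −0.25 against −0.14 for the 17 without it.

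Among the pathway lists, interferon response genes had the lowest median. These genes encode antiviral effectors and sensors that are induced through interferon-stimulated response elements. Of 41 tested members, 14 were called lower and none higher, 34 were lower and none higher by adjusted p, and the median was −0.93. IFI44L had 3.62, 4.31 and 3.34 CPM in PEO4 at 2 h and 0.415, 0.857 and 0.930 CPM at 6 h, with 0.116 to 0.315 CPM in PEO1 BRCA+ (line difference −2.89, SE 0.592). IFITM1, which blocks viral entry, had 16.98 to 25.3 CPM in PEO4 at 2 h and 3.41 to 5.47 CPM at 6 h, against 0.367 to 0.670 CPM in PEO1 BRCA+ (line difference −2.36). In a fit with all 18 libraries of the table IFITM1 had the same size, −2.36, with an adjusted p of 0.0583.

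All 14 had a higher mean in PEO4 than in PEO1 BRCA+ at 2 h, and at 6 h UBA7 was the exception. IFI6, whose 3 elements are shown above, had mean levels of 77.65 CPM at 2 h and 26.44 CPM at 6 h in PEO4 and 3.97 and 4.69 CPM in PEO1 BRCA+ (line difference −1.81). IRF9, a transcription factor of this pathway, went from 65.58 to 17.25 CPM in PEO4 and from 12.01 to 9.04 CPM in PEO1 BRCA+ (line difference −1.52). BST2, XAF1, MX2, UBA7, OAS1, ISG20, MX1, CMPK2, IFIT2 and ISG15 were also called, from −2.33 to −1.05. At the other end SAMD9 had −0.08 (adjusted p = 0.551). Only 30 of the 41 members (73.2%) had a promoter sequence, so no share of the whole list is given. Of these 30, the 19 with the interferon element had a median line difference of −0.89 and the 11 without it −0.94.

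The lists of early response, NF-kB driven and MAPK feedback genes also had medians below 0, and message life was not measured. Of 44 tested early response genes, 10 were called lower and 1 higher, with a median of −0.37. By adjusted p 24 were lower and 5 higher. NR4A1, an orphan nuclear receptor gene, had 111, 153 and 78.3 CPM in PEO4 at 2 h and 25.0, 27.4 and 27.9 CPM at 6 h, against 16.3 to 17.1 and 22.8 to 25.0 CPM in PEO1 BRCA+ (line difference −2.59). By 6 h the lines overlapped. Its relative NR4A3 had 5.82 to 12.9 CPM at 2 h and 0.886 to 1.48 CPM at 6 h in PEO4 (line difference −3.71), and EGR3, a zinc finger factor, 1.32 to 2.39 and 0.116 to 0.277 CPM (line difference −3.55). NR4A2, MAFF, ATF3, PER1, KLF4, CSRNP1 and FOSB were lower as well, whereas IER3 was higher (1.26) and EGR1 had 0.39 (adjusted p = 0.544). MYC (−0.05), MCL1 (−0.11), JUNB (0.22), IER2 (0.12) and FOS (−0.46) did not pass by adjusted p either.

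Of 32 tested NF-kB driven genes, 7 were called lower and none higher, with a median of −0.46. By adjusted p 15 were lower and 3 higher. CCL28, a mucosal chemokine gene, had 2.92 to 3.96 CPM in PEO4 at 2 h and 1.02 to 1.42 CPM at 6 h, with 0.636 to 1.16 CPM in PEO1 BRCA+ (line difference −1.97). PTGS2, ICAM1, IL6, TNFAIP8 and TNFAIP2 were also lower. BCL2A1, an anti-apoptotic gene, had 10, 13 and 13 counts in PEO4 at 2 h and 1, 0 and 1 at 6 h, so its fitted size depends on the prior count. Of 38 MAPK feedback and EGF family genes, 5 were lower and 1 higher, with a median of −0.36, and without PEO4 2 h replicate 2 the lower count was 2. By adjusted p 15 were lower and 10 higher, so this list was mixed in direction. FGFBP1, a carrier of fibroblast growth factors, fell in PEO4 from 88.8 to 102 CPM at 2 h to 33.1 to 39.9 CPM at 6 h and rose in PEO1 BRCA+ from 201 to 226 CPM to 249 to 317 CPM (line difference −1.83). DUSP8, with 0.184 to 1.65 CPM in PEO4, lost its call without PEO4 2 h replicate 2 (−1.37, adjusted p = 0.0513, against −2.09).

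Lipid synthesis genes were called in the lower direction as well. Of 33 cholesterol and fatty acid synthesis genes, 4 were called lower and none higher, 21 were lower and 4 higher by adjusted p, and the median was −0.45. Over all genes tested, 7.18% were called lower and 25.2% were lower by adjusted p. SREBF2, the master transcription factor of cholesterol synthesis, had 94.9, 95.7 and 88.5 CPM in PEO4 at 2 h and 38.3, 37.9 and 43.6 CPM at 6 h, against 199.7 to 206 and 217 to 246 CPM in PEO1 BRCA+. The line difference was −1.41 (SE 0.0807, adjusted p = 1.34e-10), with a rise in PEO1 BRCA+ of 0.19 that passed by adjusted p. STARD4, a sterol carrier gene, had 13.3 to 13.6 CPM at 2 h and 4.70 to 5.84 CPM at 6 h in PEO4 and rose from 16.4 to 16.9 CPM to 20.4 to 22.1 CPM in PEO1 BRCA+ (line difference −1.71). SCD and FADS2, which desaturate fatty acids, were the others called, and HMGCS1, at −0.998, was just short of the size threshold. FASN went the other way by 0.37 (adjusted p = 0.00115).

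Heat shock chaperones moved in the opposite direction. Chaperones fold client proteins and are induced by HSF1 through heat shock elements. Of 28 tested members, 3 were called higher and none lower, 23 were higher and 3 lower by adjusted p, and the median was 0.63. CHORDC1, a co-chaperone of HSP90 (chr11:90200429-90223049), had 36.3, 32.7 and 41.2 CPM in PEO4 at 2 h and 177, 182 and 193 CPM at 6 h, against 108 to 123 and 142 to 145 CPM in PEO1 BRCA+. It began below PEO1 BRCA+ and ended above it, with no overlap at either time and a line difference of 2.00 (SE 0.0912, adjusted p = 4.58e-12). DNAJA4 went from 3.94 to 4.78 CPM to 12.2 to 14.1 CPM in PEO4 with 5.00 to 6.10 CPM in PEO1 BRCA+ (line difference 1.53), and HSPH1 had a line difference of 1.42.

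The HSP90 gene HSP90AA1, one of the most abundant messages, had means of 2939 and 4759 CPM in PEO4 against 3139 and 2965 CPM in PEO1 BRCA+, and its line difference of 0.78 passed by adjusted p only. The small heat shock proteins HSPB1, CRYAB and HSPB8 were the 3 members lower by adjusted p, from −0.60 to −0.84. Promoter sequences were found for 25 members, and 5 of them held the heat shock element, against 0.33% of the 12106 tested genes with a promoter. The 5 had a median line difference of 0.65 and the 20 others 0.56.

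Ribosome biogenesis genes and ribosomal protein genes had medians of opposite sign. Of 52 ribosome biogenesis and RNA polymerase I genes, 3 were called higher and none lower, 39 were higher and 4 lower by adjusted p, and the median was 0.45. TCOF1, a nucleolar factor for rRNA transcription, had 213, 152 and 226 CPM in PEO4 at 2 h and 465, 459.7 and 463 CPM at 6 h, against 448 to 470.5 CPM in PEO1 BRCA+ over both times (line difference 1.26, SE 0.145). UTP20, a processome subunit gene, had 45.7 to 66.1 and 128 to 133 CPM in PEO4 against 102 to 125 CPM in PEO1 BRCA+ (line difference 1.29). By 6 h both genes had reached the PEO1 BRCA+ range or lay just above it. NOC4L was the third gene called (1.07), with 5 called without PEO1 BRCA+ 2 h replicate 1 or PEO4 2 h replicate 3, and the RNA polymerase I subunit genes POLR1A and POLR1B had 0.99 and 0.97. Of 75 ribosomal protein genes none was called, 61 were lower and 1 (RPS26, 0.63) higher by adjusted p, and the median was −0.32.

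**Figure D4:**
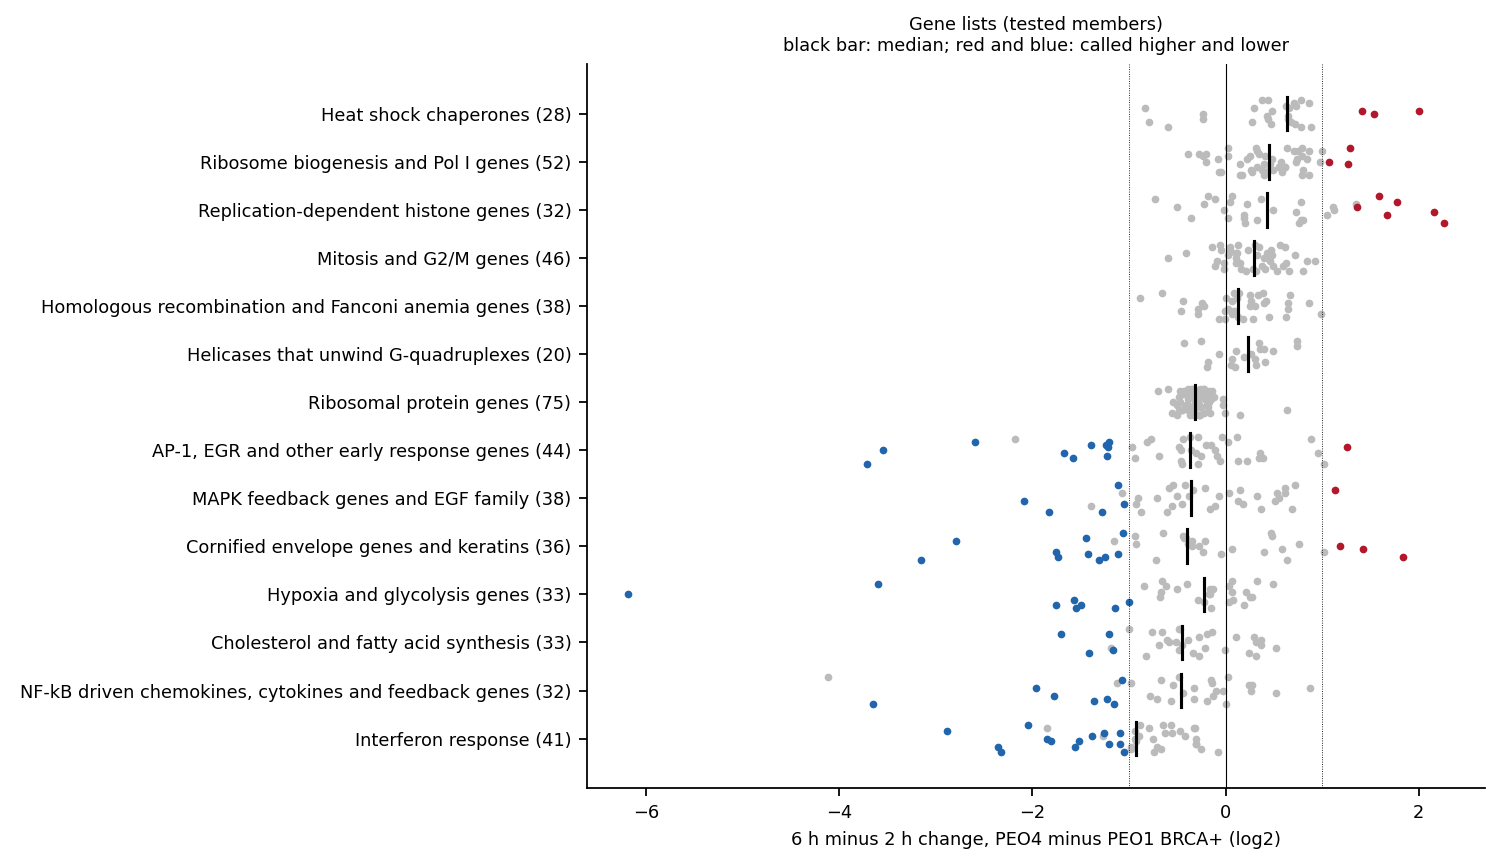
Line difference (log2) of the tested members of 14 gene lists, 1 point per gene, with the number tested in brackets, a black bar at the median and dotted lines at the size threshold. Interferon response genes lie left of 0 with a median of −0.93, heat shock chaperones lie mostly right of it with a median of 0.63, and ribosomal protein genes form a narrow group around −0.32.

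Replication-dependent histone genes, whose messages lack a poly(A) tail and were therefore poorly captured by the poly(A) enrichment, had 32 tested members, 6 called higher and none lower, and a median of 0.43. They were weakly covered. H3C12 had 0.107 to 0.301 CPM in PEO4 at 2 h and 0.611 to 0.761 CPM at 6 h, against 0.437 to 1.07 CPM in PEO1 BRCA+ (line difference 2.26). H2AC8 had 4 to 7 counts in PEO4 at 2 h and 16 to 22 at 6 h (line difference 2.15), and H4C8, H1-4, H1-5 and H2AC11 were the others. Of 46 mitosis and G2/M genes none was called, but 27 were higher and 2 lower by adjusted p, with a median of 0.29. Over all genes 25.1% were higher and 25.2% lower by adjusted p, and 46.8% were higher at a mean log2 CPM over 6. The list was not compared with genes of matched level. The G2/M regulators FOXM1 (0.93), CDC20 (0.85) and PLK1 (0.72) were among its higher members. Of 44 DNA replication genes 1 (E2F2, −1.15) was called, while 13 were higher and 5 lower by adjusted p.

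BRCA2 itself had a line difference of 0.87 (SE 0.157, adjusted p = 0.000117), under the size threshold. It had 6.97, 6.93 and 7.12 CPM in PEO4 at 2 h and 10.2, 9.34 and 7.88 CPM at 6 h, and 6.00, 6.53 and 7.72 CPM and 4.98, 4.48 and 5.06 CPM in PEO1 BRCA+. The lines overlapped at 2 h and no longer at 6 h, since it rose in PEO4 by 0.39 and fell by 0.48 in PEO1 BRCA+. Of 38 homologous recombination and Fanconi anemia genes none was called, with 14 higher and 7 lower by adjusted p and a median of 0.12. FANCM had 0.98 and the end-resection factor RBBP8 −0.89. None of 20 helicases that unwind G4s was called either, with 9 higher and 4 lower by adjusted p. DHX9, a helicase that opens DNA and RNA G4s, had 0.74.

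Adhesion and matrix genes split. Of 27 mesenchymal genes, 3 were higher and 6 lower. FN1 (1.65), TNC (1.56) and CDH2 (1.34), which encode fibronectin, tenascin C and N-cadherin, were higher, whereas VIM (−1.47), MMP2 (−1.75) and S100A4 (−1.74) were lower. SERPINE2, a secreted protease inhibitor gene, had 90.8 to 169 CPM in PEO4 at 2 h and 26.6 to 30.5 CPM at 6 h, with 79.7 to 83.0 CPM in PEO1 BRCA+ (line difference −2.12). LOXL2, which crosslinks collagen, fell in PEO4 and rose in PEO1 BRCA+ (line difference −1.82), where it went from 58.4 to 61.7 CPM to 80.4 to 86.5 CPM. Of 51 extracellular matrix and integrin genes 3 were higher and 5 lower (8 lower without PEO4 2 h replicate 3), among them LAMA4, a laminin chain gene, with 133 to 152 CPM at 2 h and 31.4 to 33.3 CPM at 6 h in PEO4 against 24.7 to 29.1 CPM in PEO1 BRCA+ (line difference −2.10). COL6A2, a collagen gene of the same list, had −2.00 with 6 to 12 counts in PEO1 BRCA+.

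Keratins likewise split by member, and junction genes did so by adjusted p only. Of 36 cornified envelope and keratin genes, 3 were higher and 10 lower, with a median of −0.40. KRT6A, KRT5 (1.18) and SPRR1B (1.43) were higher, and KRT13, KRT15, KRT16, KRT17 and KRT19 were lower. KRT13 had 7.35 to 18.1 CPM in PEO4 at 2 h and 0.916 to 1.38 CPM at 6 h, with 7.77 to 10.8 CPM in PEO1 BRCA+ (line difference −3.15). Of 37 epithelial junction genes none was called higher and 3 were called lower, among them TJP3 (−1.86) and CLDN3 (−1.29). By adjusted p 10 junction genes were higher and 16 lower. TJP3, a tight junction scaffold gene, had 15.2 to 24.3 CPM in PEO4 at 2 h and 3.31 to 4.04 CPM at 6 h against 2.36 to 4.43 CPM in PEO1 BRCA+. Of 17 tested ovarian and epithelial markers 5 were called lower and none higher, against 7.18% and 2.13% of all genes. These were MUC16 (−2.04), the CA125 gene, WFDC2 (−1.28), MSLN, KRT19 and CLDN3. By adjusted p 8 markers were lower and 5 higher, and the median was −0.18. The abundant keratins KRT18 (0.76), KRT8 (0.63) and KRT7 (0.59) were among the higher ones.

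Signalling lists were mixed in direction. For these and the lists that follow, several counts lay near or under the shares over all genes. These shares were 2.13% higher and 7.18% lower for calls, and 25.1% and 25.2% by adjusted p alone. Such counts are not read as results about the list. Of 31 YAP and TEAD genes, 2 were called higher (AXL, AJUBA) and 4 lower (CCN2, GADD45B, CCN1, ANKRD1), while 16 were higher and 7 lower by adjusted p and the median was 0.33. The canonical targets CCN1 and CCN2 thus moved against the list's median. GADD45B, a stress-induced gene, went from 32.7 to 41.6 CPM to 12.95 to 14.1 CPM in PEO4 with 17.5 to 21.03 CPM in PEO1 BRCA+ (line difference −1.37).

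Of 35 WNT ligands, receptors and secreted regulators 2 were called lower, while 6 were higher and 6 lower by adjusted p. WNT11, a non-canonical ligand gene, had 27.9 to 40.1 CPM in PEO4 at 2 h and 8.69 to 10.6 CPM at 6 h, against 0.463 to 0.823 CPM in PEO1 BRCA+ (line difference −1.69). LGR6, an R-spondin receptor gene, was at −1.002 and lost its call in 10 of the alternative settings, among them without PEO4 2 h replicate 2 (−0.955). Of 27 WNT feedback and target genes SP5 was higher (1.004) and APCDD1 lower (−1.34), and SP5 lost its call in 14 of them. Of 44 TGF-beta, BMP and SMAD genes 4 were called lower, or 2 without PEO4 2 h replicate 2. By adjusted p 12 were higher and 10 lower, and the median was 0.16. TGIF2, a SMAD corepressor gene, fell in PEO4 (23.9 to 29.0 CPM to 12.1 to 13.3 CPM) and rose in PEO1 BRCA+ (8.28 to 9.05 CPM to 12.6 to 13.5 CPM), so the lines overlapped at 6 h. GDF15, a stress-induced cytokine gene, had a line difference of −3.32 at 0.266 to 7.06 CPM in PEO4. The other members called were INHBA and ID3.

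Of 19 Notch genes 2 were lower, the coactivator MAML2 (−1.83, with 7.95 to 12.9 CPM in PEO4 at 2 h and 2.07 to 2.56 CPM at 6 h) and the receptor NOTCH3 (−1.03), which lost its call without PEO4 2 h replicate 2 (−0.997), PEO1 BRCA+ 2 h replicate 2 (−0.994) or PEO1 BRCA+ 6 h replicate 1 (−0.996). Of 31 p53 targets 4 were lower, GDF15, EDA2R (−2.53), TP53INP1 and BBC3. Of 30 mTOR genes 2 were lower, DEPTOR and RRAGD (−1.06), the second losing its call without PEO4 2 h replicate 2 (−0.98). Of 36 integrated stress and unfolded protein response genes 1 was lower, NUPR1 (−2.34). By adjusted p 5 Notch genes were higher and 6 lower, and 9 p53 targets were higher and 14 lower. The same counts were 10 and 9 for the mTOR genes and 10 and 10 for the stress response genes. Of 10 metallothioneins MT1M (−1.42) and MT1F (−1.17) were lower, and both of these metal-binding genes fell in PEO4 and rose in PEO1 BRCA+. Without PEO1 BRCA+ 6 h replicate 3 the list had 4 lower.

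Of 32 calcium genes 1 was higher and 6 lower. ORAI3, a store-operated channel gene, had means of 12.66 and 2.22 CPM in PEO4 (line difference −2.50). The calls of CACNA1B and RYR1 were lost without PEO1 BRCA+ 6 h replicate 1, which held 4 and 5 counts where the other PEO1 BRCA+ libraries held 0 or 1. Without it their values were −1.85 (adjusted p = 0.867) and −1.69 (adjusted p = 0.514). RYR1 also lost its call without PEO1 BRCA+ 2 h replicate 1 (adjusted p = 0.0741) or replicate 2 (adjusted p = 0.0894). Of 31 transporter and platinum genes 2 were higher and 4 lower. ABCA2, a lipid transporter gene, had 5.80 to 10.2 CPM in PEO4 at 2 h and 1.71 to 2.04 CPM at 6 h, with 23.6 to 27.4 CPM in PEO1 BRCA+ (line difference −1.96), and the drug efflux gene ABCG2, at 0.055 to 0.325 CPM in PEO4, had 1.63 but lost its call without PEO4 2 h replicate 2 (1.31, adjusted p = 0.0859).

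Of 31 forkhead genes 4 were lower, FOXA1, FOXO4, FOXS1 and FOXL1, of which FOXS1 (−1.52) and FOXL1 (−2.90) lost their calls without PEO4 2 h replicate 2 (−1.41 and −2.16, adjusted p = 0.0561 and 0.0652). FOXL1 had 0, 1 and 1 counts in PEO4 at 6 h. By adjusted p 6 forkhead genes were higher and 8 lower. Of 19 SR splicing genes the kinase CLK4 was higher (1.19) and SRSF6 lower (−1.02). SRSF6 had 412 to 417 CPM in PEO4 at 2 h and 145 to 155 CPM at 6 h and fell in PEO1 BRCA+ too, from 243 to 249 CPM to 176 to 186 CPM. Of 37 genes of transcription elongation 1 was lower (TCEA3, −2.34), of 26 snoRNA host genes 1 (EPB41L4A-AS1, −1.15), of 24 HOX genes 1 (HOXB5, −1.05) and of 73 nuclear oxidative phosphorylation genes none. By adjusted p 20 of the elongation genes were higher and 5 lower, against 25.1% and 25.2% of all genes, without matching for level.

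Markers of other cell types stayed low. Summed fibroblast markers were 75.955 to 110.77 CPM at 2 h and 46.964 to 52.427 CPM at 6 h in PEO4, with THY1 the largest part, and lay at 131.33 to 154.98 CPM in PEO1 BRCA+. COL1A1 was 1 of 7 tested members called lower, and DCN was at 0 in all 6 PEO4 libraries. Summed immune markers were 45.941 to 82.866 CPM, mostly CD68, with CD14 and CSF1R called lower of 5 tested. Summed endothelial markers were 5.8231 to 8.0016 CPM in PEO1 BRCA+ and 87.417 to 107.72 CPM in PEO4, where nearly all of it was TIE1. Of 7 tested, TIE1 was called higher and VWF lower. TIE1 hardly moved in PEO4 (means of 91.8 and 98.2 CPM, log2 change 0.10). Its line difference of 1.29 came from PEO1 BRCA+, with means of 0.369 and 0.159 CPM. VWF had means of 0.333 and 0.039 CPM in PEO4, so both calls rest on values near the floor. Ribosomal RNA took 0.0163% to 0.0369% of counts, and none of 15 tested rRNA genes was called. The part of these in the line difference was not tested, and in bulk RNA fewer cells of a kind and less RNA per cell cannot be told apart.

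In 13 of the called genes PEO1 BRCA+ also passed the threshold between 2 and 6 h, most of them weakly expressed. Beside CA9, those named by the size of the PEO1 BRCA+ change were TIGD4 and CTSW, which fell in PEO1 BRCA+ by 2.63 and 1.74, and CXXC5-AS1, which rose by 1.34. TIGD4 and CTSW had 22 counts or fewer in every library, and CXXC5-AS1 overlaps CXXC5 on the genome, where reads cannot be assigned without strand. ZFPM2, a cofactor of GATA factors, fell in PEO1 BRCA+ by 1.26 at 0.116 to 0.636 CPM and stayed at 20.6 to 24.1 CPM in PEO4. Its line difference of 1.14 was 0.83 without PEO1 BRCA+ 6 h replicate 2.

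Gene length was measured as the span of the gene in RefSeq, which was found for 15760 of the 16386 genes. The higher genes were longer, with a median span of 36.7 kb and 32.2% over 100 kb, against 27.4 kb and 17.8% for all genes tested. The lower genes had a median span of 23.4 kb and 17.1% over 100 kb. Of all genes tested, 2.44% of those under 10 kb and 3.88% of those over 100 kb were called higher. Between these limits the share was 1.49% at 10 to 30 kb and 1.45% at 30 to 100 kb, so it did not rise steadily with span. Among genes with a mean log2 CPM of at least 3, 2.44% of those over 100 kb were called higher against 0.818% of those under 10 kb, and 2.95% and 4.04% were called lower. Of the 10 named genes with the largest positive line difference 5 span more than 100 kb (MARCHF4, NEGR1, NAV3, KCNQ5 and SEMA3C), and of the 10 with the largest negative 3 do (SEMA3A, DEPTOR and TRPM8). Promoter sequences were found for 66.8% of the higher and 68.9% of the lower genes, so a comparison of G4 patterns over the called genes was void.

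**Figure D5:**
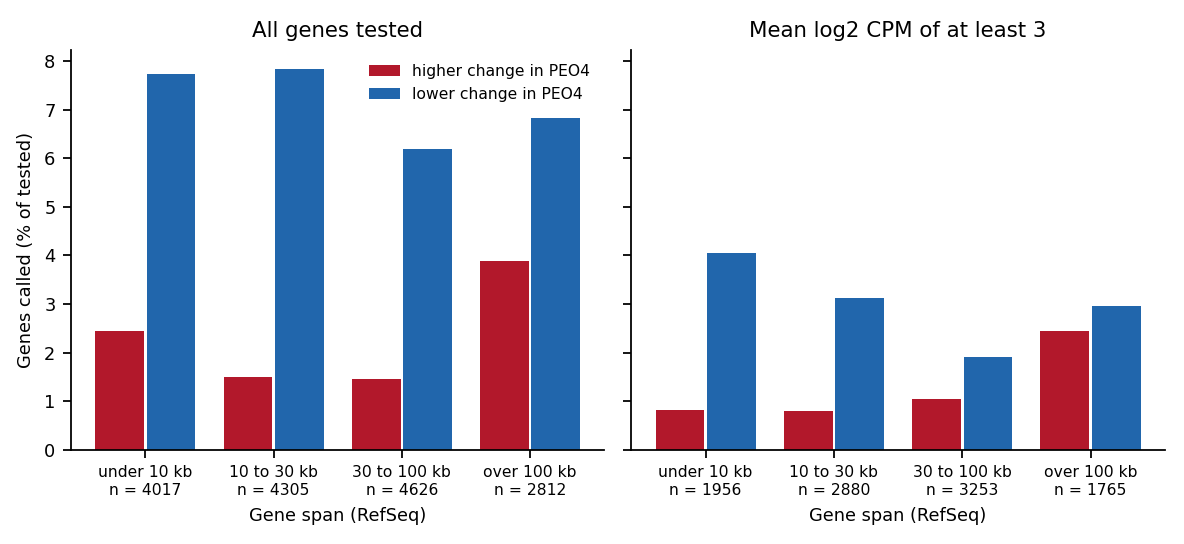
Share of tested genes called higher (red) and lower (blue) by gene span (kb), for all genes with a span (left) and for those with a mean log2 CPM of at least 3 (right), with the number of genes under each pair of bars. In both panels the share called higher is largest over 100 kb, at 3.88% and 2.44%.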

How the data were processed

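RNA was poly(A)-enriched and sequenced in paired ends. Per the labels the submitters' processing notes name FastQC, fastp, STAR, featureCounts and hg38, and the deposited table holds raw read counts per gene that the authors made. The annotation and the strand setting are not given in the sources used here, so genes that overlap another gene, among them MARCHF4, CCN2, NR4A1, SREBF2, STARD4 and TGIF2, may share reads with it. The table's 6 untreated libraries entered only an alternative fit of all 18 libraries, and a second table of 6 untreated libraries was not used.

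Counts of 12 libraries were scaled by TMM and filtered by expression (edgeR 4.0.16 filterByExpr, minimum count 10), and 1 mean per condition was fitted with the robust quasi-likelihood test (8 residual degrees of freedom, R 4.3.3, limma 3.58.1). Each SE given is the absolute log2 value divided by the square root of the F statistic of the same test, so it is not separate from the p-value. DESeq2 1.42.0 was an alternative. Calls needed an adjusted p under 0.05 and an absolute log2 value over 1. Named genes were BRCA2, the 10 largest called line differences in each direction at a mean log2 CPM of at least 3 (without pseudogenes, small RNAs and LOC or LINC symbols), up to 5 genes also called in PEO1 BRCA+, and the 2 largest called members of each pathway list with 2 or more. Other genes named are list members or markers, and 1 gene that the rule chose is not reported here. The comparison, gene lists and named genes were chosen with earlier results of these data known. The procedure was tested on simulated data.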

Additional observations from a re-analysis of the deposited data

Results flagged for a closer look

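The change from 2 to 6 h of PDS differed between the lines by the test of that difference for 349 genes in the higher and 1177 in the lower direction. Among the genes named in the text the line difference (log2, PEO4 minus PEO1 BRCA+) was positive for MARCHF4 (3.70), NEGR1 (3.21), ESM1 (2.88), TIGD4 (2.83), CTSW (2.73), INA (2.59), NAV3 (2.44), H3C12 (2.26), H2AC8 (2.15), CHORDC1 (2.00), KCNQ5 (1.90), TBC1D2 (1.86), KRT6A (1.84), SEMA3C (1.76), ABCG2 (1.63), DNAJA4 (1.54), UTP20 (1.29), TCOF1 (1.26), CLK4 (1.19), ZFPM2 (1.14) and SP5 (1.004). The largest negative values were those of CA9 (−6.19), CACNA1B (−5.43), DHRS2 (−3.78), NR4A3 (−3.71), BCL2A1 (−3.65), CA12 (−3.60), EGR3 (−3.55), RYR1 (−3.42), IGFBP5 (−3.41), DEPTOR (−3.33), GDF15 (−3.32), KRT13 (−3.15) and FOXL1 (−2.90). Next in size came IFI44L (−2.89), TRPM8 (−2.87), KCNF1 (−2.82), KRT15 (−2.79), GBP1 (−2.75), SEMA3A (−2.66), NR4A1 (−2.59), EDA2R (−2.53), CCN2 (−2.51), IFITM1 (−2.36), SERPINE2 (−2.12), CXXC5-AS1 (−2.10) and LAMA4 (−2.10). Smaller negative values were those of DUSP8 (−2.09), COL6A2 (−2.00), CCL28 (−1.97), ABCA2 (−1.96), TJP3 (−1.86), MAML2 (−1.83), FGFBP1 (−1.83), LOXL2 (−1.82), STARD4 (−1.71), WNT11 (−1.69), TGIF2 (−1.68) and FOXS1 (−1.52). The smallest were those of MT1M (−1.42), SREBF2 (−1.41), GADD45B (−1.37), APCDD1 (−1.34), MT1F (−1.17), RRAGD (−1.06), NOTCH3 (−1.03), SRSF6 (−1.02) and LGR6 (−1.002). In PEO4 at 6 h BCL2A1, FOXL1 and CACNA1B had at most 3 counts per library, so their fitted values depend on the prior count and are no bounds. Groups of 3 libraries are too small for a test of single outlying libraries, and none was made.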

How the results depend on the processing

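Of 69 called genes chosen by the rule for named genes, 55 could be tested under all 24 alternative settings, and 47 of these kept their call in each. Stricter count filters removed the other 14 in 1 or 2 settings, and 8 of these kept their call wherever they were tested. In all 14 genes lost it under at least 1 setting, and no result reversed. These were SP5 (14 settings), LGR6 (10), ABCG2 (6), FOXS1 (5), RYR1 (4), DUSP8 and NOTCH3 (3 each), CACNA1B, RRAGD and ZFPM2 (2 each), and APCDD1, FOXL1, IFITM1 and SRSF6 (1 each). Besides PEO4 2 h replicate 2, single libraries that ended a call were PEO4 6 h replicate 1 for DUSP8, PEO4 6 h replicate 3 for RRAGD, PEO4 6 h replicate 2 for SRSF6, PEO1 BRCA+ 6 h replicate 3, PEO4 2 h replicate 1 and PEO4 6 h replicate 3 for FOXS1, and PEO1 BRCA+ 2 h replicate 3, PEO1 BRCA+ 6 h replicate 2, PEO4 6 h replicate 2 and PEO4 6 h replicate 3 for ABCG2. The counts of higher and lower genes were 307 and 1277 with library totals, 291 and 1335 with upper-quartile scaling, 337 and 1138 with DESeq2's Wald test and 262 and 1018 with a minimum count of 30. Leaving out single replicates gave 305 to 414 higher and 993 to 1388 lower genes. Called genes were lower in 77.1% with TMM and in 76.6% to 82.1% over the scalings. With the replicate block the counts were 350 and 1179, but same-numbered libraries correlated from −0.301 to 0.533 in their deviations, so the numbers were not taken as pairs. By adjusted p alone the counts were 4114 higher and 4123 lower for the line difference, 5248 and 5480 for PEO4, 1029 and 1013 for PEO1 BRCA+, 6354 and 6244 between lines at 2 h and 6029 and 5957 at 6 h. With a fold change over 1.5 they were 1343 and 2246, 1548 and 2846, 97 and 154, 3902 and 3504, and 3153 and 3438. These settings change the threshold itself. Against a fold change of 1.5 (glmTreat) 707 genes rose in PEO4, and 3 rose and 1 fell in PEO1 BRCA+. The 17 genes that rose in PEO1 BRCA+ were 8 with DESeq2, 8 with a minimum count of 30 and 8 with a mean of at least 10 counts in each line, a setting chosen after seeing the data. They were 10 to 20 without single replicates (10 without PEO1 BRCA+ 2 h replicate 2, 11 without 6 h replicate 1). The 25 that fell were 13 with a minimum count of 30 and 13 to 34 without single replicates (16 without PEO1 BRCA+ 2 h replicate 2, 13 without 6 h replicate 1), and the cause was not tested. Depth limits the calls of genes with few counts.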

Other observations

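The untreated libraries of the same table (3 per line) entered the test of the line difference only in the alternative fit of all 18 libraries and are given here as values, in TMM-scaled CPM over 18 libraries with the mean ± SD of 3. Paths relative to untreated were read from the order of group means alone, without a size limit or test. The genes had been chosen by their values at 2 and 6 h, which favours some paths, so the counts only describe them. Of the 1177 lower genes, PEO4 lay above its untreated mean at 2 h and below it at 6 h for 537, above it and part of the way back for 126, and below it at 2 h and lower still at 6 h for 514. Of the 349 higher genes, PEO4 lay above untreated at 2 h and higher still at 6 h for 113, below and then above for 128, below and part of the way back for 107, and below and lower still for 1. DHRS2 had 6.52 ± 1.31 CPM untreated, 107 ± 31.9 at 2 h and 8.67 ± 2.21 at 6 h in PEO4, and DEPTOR had 2.36 ± 1.39, 118 ± 17.6 and 10.7 ± 0.179. CHORDC1 went from 66.3 ± 5.92 to 37.6 ± 4.42 and 188 ± 7.61 CPM, below and then above the untreated level. IFITM1 had 120 ± 52.7, 21.6 ± 4.22 and 4.60 ± 1.04 CPM, and APCDD1 had 227 ± 52.6, 12.4 ± 0.530 and 5.83 ± 1.03 CPM, so both were lower at each later time.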
